A study of Mus musculus with 14 samples.

Results

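Bulk WT regulatory T cells (Tregs) were compared with WT Tregs that had also been gated on high surface CD25, in order to see which transcripts the CD25hi gate leaves out of the bulk population and which follow the level of immediate early genes instead. The comparison was chosen by its labels and used 7 of the 14 libraries of the series, 4 of bulk WT Tregs and 3 of CD25hi Tregs. Of 48363 genes with values, 14880 had at least 10 normalized counts in 2 of these 7 libraries and were tested. All 7 libraries came from CD4+ FOXP3-YFP+ cells of miR-15/16 wt/wt Foxp3Cre mice, which carry both miR-15/16 clusters. Cre and YFP are expressed from the endogenous Foxp3 locus, so each cell in either group reported Foxp3 transcription at the sort, and the bulk gate was set on CD4 and FOXP3-YFP without CD25. Spleen and peripheral lymph nodes were pooled. The age of the mice sequenced, the day of each sort, and whether bulk and CD25-gated cells came from the same mice are not given in the sources used here. Also shown where they bear on a value are 2 libraries of CD25lo WT Tregs of the same genotype and 5 libraries of miR-15/16 fl/fl Foxp3Cre (cKO) Tregs.

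Tregs restrain other lymphocytes and depend on the transcription factor FOXP3. CD25, the α chain of the high-affinity IL-2 receptor, lets them capture IL-2, which signals through STAT5 and sustains FOXP3, and in mice effector Tregs often carry less CD25 than resting ones. Immediate early genes such as Fos, Jun and Egr1 are transcribed within minutes of a stimulus without new protein synthesis, and T cell receptor signals, stress and the handling of cells all induce them.

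The libraries were compared in depth and identity first. They held 30055573 to 33516978 reads in genes, and 13723 to 17198 genes had a read. Zeros were unevenly spread. Of genes with a median of at least 50 normalized counts elsewhere, 257 were at 0 in CD25hi replicate 2. The number was 193 in WT replicate 2 and 95 in WT replicate 4. It was 2 and 4 in WT replicates 1 and 3, and 7 and 19 in CD25hi replicates 1 and 3. A value of 0 therefore need not mean that a transcript was absent. Cd3e, a chain of the T cell receptor complex, had 31111, 34207, 30011 and 34458 normalized counts (reads divided by the size factor of the library) in WT replicates 1 to 4 and 33783, 40063 and 32137 in CD25hi replicates 1 to 3, and Cd4 had 39142, 45018, 37038 and 39347 in WT and 35747, 40193 and 37226 in CD25hi libraries. Neither differed beyond the spread of the libraries (adjusted p = 0.477 and 0.598). WT replicate 3 was the only female library of the 7 by Xist and Y-linked genes. The mean log2 level of 20 immediate early genes, used below as a score, was 13.90, 13.64 and 13.81 in WT replicates 1, 2 and 3, 11.66 in WT replicate 4, and 11.74, 11.48 and 11.39 in the CD25hi libraries. WT replicate 4 therefore lay within the CD25hi range and its 3 companions well above it. Apart from that library, the gate and the immediate early level changed together and cannot be told apart.

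The gate itself was visible in the transcript of its marker. Il2ra, which encodes CD25 and lies on chromosome 2 from 11642807 to 11693193 (GRCm38), had 25645, 24206, 25146 and 29151 normalized counts in WT replicates 1 to 4, 39725, 41188 and 39583 in CD25hi replicates 1 to 3, and 15026 and 14682 in the CD25lo libraries. Every WT library, replicate 4 included, lay below every CD25hi library and above both CD25lo libraries. The difference in log2 level between WT and CD25hi Tregs was -0.63 (standard error 0.09, adjusted p = 0.0045) by limma. As the sort was made on CD25, this is a check of the gate and not a finding. On the linear scale the WT libraries lay 57.4%, 63.1%, 59.3% and 43.5% of the way from the CD25hi mean (0) to the CD25lo mean (100).

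Over all genes tested, 151 were higher in bulk WT than in CD25hi Tregs, 1.01% of 14880, and 37 were lower, 0.249% (limma on log2(normalized count + 1), Benjamini-Hochberg adjusted p under 0.05). At an unadjusted p under 0.05, 9.03% of the genes were higher and 6.38% lower by limma. Other tools called 0.988% higher and 0.289% lower (edgeR with TMM factors), 3.38% and 1.01% (DESeq2) and 0.0538% and 0.0806% (limma-voom). Of the 151 higher genes, 15 had a CD25hi mean below 10 normalized counts, the minimum of the filter on low values. Their calls are not counted on as support. They were not removed, and the counts, medians and positions over the higher genes given here include them. The rises were the larger, with a median log2 difference of 1.28 over the called genes, against -0.46 for the falls and 0.0038 over all genes. The counts depended on single libraries. Without WT replicate 4, 618 genes (4.22%) were higher and 227 (1.55%) lower, whereas without WT replicate 1, 2 or 3 there were 2, 2 and 3 genes higher and 1 lower each time. The shares of all genes, with and without WT replicate 4, are the background for every count of list members below. Without CD25hi replicates 1, 2 and 3 the counts were 64, 2 and 37 higher and 8, 0 and 5 lower (limma, with 720 lower at an unadjusted p under 0.05 where none was called). Fitted on the 7 libraries alone, without the CD25lo and cKO libraries that help to estimate the spread, limma called 0 genes higher and 1 lower, Il2ra, with 945 and 585 at an unadjusted p under 0.05. Of 68 called genes examined one by one, which include all those named below as called, 2 kept their call without any one of the 7 libraries, Plekhg3 and Rasd1, the latter at 0 in every gated library and so tested only because it is high in bulk WT, and the calls below are to be read with this limit. In bulk samples, fewer cells of a type and less RNA per cell cannot be told apart.

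**Figure D1:**
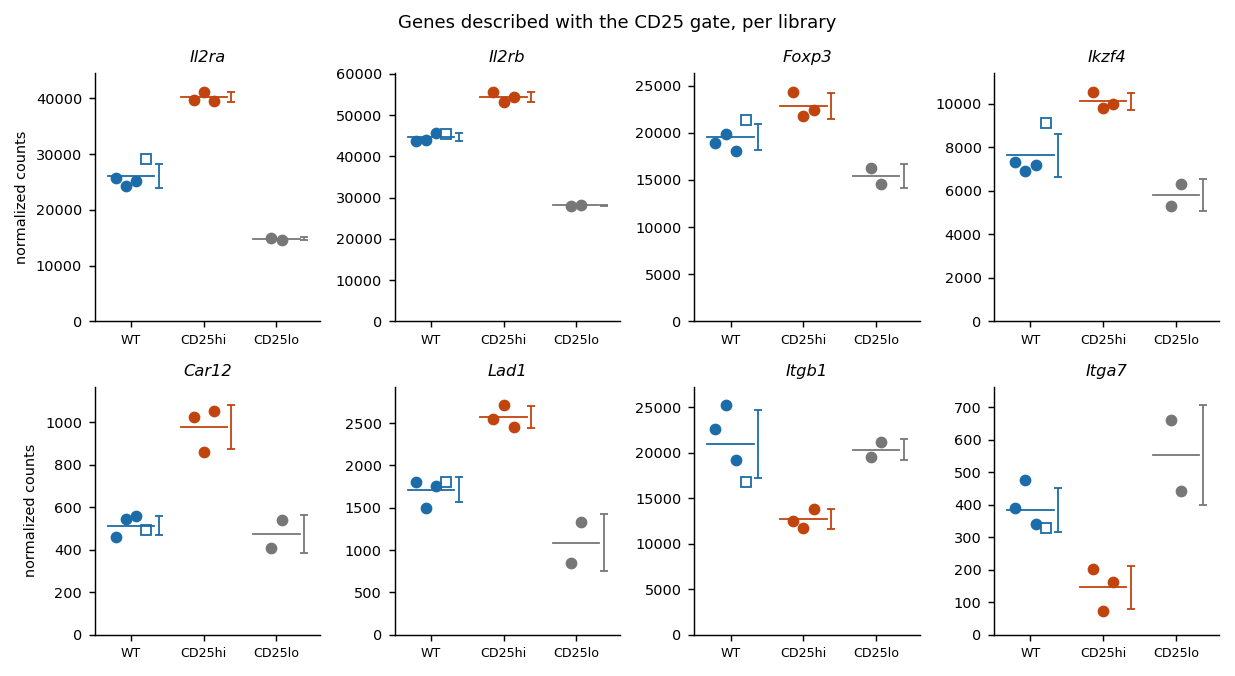
Normalized counts per library (y axis, from 0) of 8 genes in bulk WT (blue), CD25hi (orange) and CD25lo (grey) Tregs, with a horizontal line at the group mean, an error bar for the SD beside it, and WT replicate 4 as an open square. Il2ra, Il2rb and Lad1 lie between the gates in bulk WT Tregs, Car12 and Itgb1 lie near the CD25lo level, and WT replicate 4 is close to or within the range of the other WT libraries for Il2rb, Car12, Lad1 and Itga7.

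The other chains of the receptor were read beside Il2ra. Il2rb, the β chain that signals for both IL-2 and IL-15, had 43632, 43964, 45621 and 45529 normalized counts in WT and 55683, 53119.8 and 54301 in CD25hi libraries, without overlap, and 28061 and 28143 in CD25lo libraries. Its log2 difference between WT and CD25hi Tregs was -0.28 (standard error 0.06, adjusted p = 0.045), and without WT replicate 4 it was -0.29 (adjusted p = 0.0126). Bulk WT Tregs lay 36.9% of the way to the CD25lo mean for Il2rb. Il2rg, the γ chain shared with other cytokine receptors, had 14065, 16617, 14421 and 14747 in WT and 14049, 14548 and 13574 in CD25hi libraries, and these overlapped (log2 difference 0.09, standard error 0.07, adjusted p = 0.576). Il7r, the IL-7 receptor chain, also overlapped, with a log2 difference of -0.06 (standard error 0.13, adjusted p = 0.859).

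Some targets of IL-2 signalling and a few genes of the core Treg programme lay in the same order as CD25. Of 17 IL-2 and STAT5 target genes, 3 were lower in bulk WT (Il2rb, Bcl2 and Ecm1) and 1 was higher (Prdm1), and the median log2 difference over the 17 was -0.25. Bcl2, which protects from apoptosis, had 12556, 12884, 14193 and 15691 normalized counts in WT and 18482, 18319 and 18896 in CD25hi libraries, with no overlap (log2 difference -0.43, standard error 0.10, adjusted p = 0.0496). Ecm1, a secreted matrix protein that binds IL-2Rβ, had 6807, 6753, 7302 and 7452 in WT and 8937, 10121 and 9236 in CD25hi libraries (log2 difference -0.41, standard error 0.10, adjusted p = 0.0496; named after its values were seen). WT replicate 4, the library with the low immediate early level, was at 7452 for Ecm1, above the other WT libraries and below each CD25hi library. Bulk WT Tregs lay 51.7% of the way from the CD25hi to the CD25lo mean for Ecm1 and 97.6% for Bcl2.

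Of 21 core Treg genes, 1 was lower in bulk WT and 0 higher, with a median log2 difference of 0.10. At an unadjusted p under 0.05 by limma, 4 were higher and 4 lower. Without WT replicate 4, 3 were called higher and 3 lower, so the list as a whole did not follow CD25. The gene called was Ikzf4, encoding Eos, a cofactor of FOXP3, with 7333, 6903, 7159.7 and 9090.2 normalized counts in WT and 10551, 9786 and 9969 in CD25hi libraries (log2 difference -0.41, standard error 0.09, adjusted p = 0.045). Its WT replicate 4 lay nearest to the CD25hi libraries, and without that library the difference was -0.50 (adjusted p = 0.000756). Foxp3 itself had 18894, 19891, 18053 and 21324 in WT and 24370.2, 21788 and 22394 in CD25hi libraries, which did not overlap, with a difference of -0.23 (standard error 0.07, adjusted p = 0.114) that did not pass. Without WT replicate 4 it passed, at -0.27 (adjusted p = 0.0265). Gpr83, a receptor abundant in Tregs, had 4606, 4740.5, 5290.2 and 5229 in WT and 6687, 7036 and 7403 in CD25hi libraries without overlap, and did not pass either (log2 difference -0.51, standard error 0.13, adjusted p = 0.060), except without WT replicate 4 (-0.53, adjusted p = 0.0312). Ikzf2, encoding Helios, had 29174, 32005, 28882 and 27600.3 in WT and 28032, 27389.5 and 28926 in CD25hi libraries, and these groups overlapped (log2 difference 0.06, standard error 0.07, adjusted p = 0.694).

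Other genes lower in bulk WT Tregs divided by where the CD25lo libraries lay. Car12, a membrane carbonic anhydrase on chromosome 9 from 66713686 to 66766845, had the largest fall among called genes with a mean of at least 500, with 461, 547, 557 and 491 normalized counts in WT, 1024, 859.7 and 1052 in CD25hi and 411 and 539 in CD25lo libraries. Its 4 WT libraries were alike and at the CD25lo level, and the log2 difference from CD25hi was -0.93 (standard error 0.18, adjusted p = 0.027). Lad1, an anchoring filament protein of epithelia, had 1806, 1493, 1753 and 1809 in WT and 2551, 2714 and 2453 in CD25hi libraries (log2 difference -0.59, standard error 0.14, adjusted p = 0.0498), and 847 and 1331 in CD25lo libraries, the lowest of the 3 groups. Ctsw, a cysteine protease of lymphocytes, had 2179, 1940.5, 2137 and 2526 in WT and 3629.8, 4129 and 3006 in CD25hi libraries (log2 difference -0.70, standard error 0.14, adjusted p = 0.030), with CD25lo at 2506 and 2146. For these genes, WT libraries lay 92.2%, 57.8% and 110.3% of the way to the CD25lo mean.

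For others the CD25lo libraries stayed with CD25hi. Exosc5, a subunit of the RNA exosome, had 1089, 708, 990.1 and 1172 normalized counts in WT, 1583, 1879 and 1505 in CD25hi and 1526 and 1663 in CD25lo libraries, so that all 4 WT libraries lay below the 5 gated ones (WT minus CD25hi -0.76, standard error 0.15, adjusted p = 0.031). Zbtb45, a zinc finger protein, showed the same order, with 906, 514, 761 and 971 in WT against 1434, 1197 and 1269.9 in CD25hi and 1290.2 and 1256 in CD25lo libraries (log2 difference -0.76, standard error 0.17, adjusted p = 0.046). Sphk2, a sphingosine kinase, had 1849, 1093, 1764 and 1562 in WT against 2158, 2710.4 and 2216 in CD25hi and 2347 and 2169.9 in CD25lo libraries (log2 difference -0.61, standard error 0.14, adjusted p = 0.049). In these 3 genes WT replicate 2 was the lowest library of all. Srd5a3, a polyprenol reductase of N-glycosylation, was lowest in WT replicate 4, at 646.4 (log2 difference -0.61, standard error 0.14, adjusted p = 0.049), and had 1122 and 1128 in CD25lo libraries. Among the other falls, the methyltransferase Prmt7 had 999.6, 773, 789.9 and 674 in WT and 1179, 1307 and 1204 in CD25hi libraries (log2 difference -0.62, standard error 0.15, adjusted p = 0.0498), and its CD25lo libraries, at 763 and 884, were with bulk WT. Nsun5, an RNA methyltransferase, fell by 0.65 on the log2 scale (adjusted p = 0.045), and its CD25lo libraries were divided, at 821 and 1186. Of the 37 genes lower in bulk WT, 14 lay below all 5 gated libraries, and over all genes tested 201 did (1.35%).

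Some integrin chains were higher both in bulk WT and in CD25lo Tregs than in CD25hi Tregs. Of 16 chains, 3 were higher in bulk WT and 0 lower, with a median log2 difference of 0.07. Itgb1, the β1 chain that pairs with many α chains to bind fibronectin, laminin and VCAM-1, had 22632, 25253, 19242 and 16819 normalized counts in WT, 12494, 11685 and 13857 in CD25hi and 19516 and 21167 in CD25lo libraries. All WT libraries exceeded all CD25hi libraries, with WT replicate 4 the lowest of them (log2 difference 0.71, standard error 0.12, adjusted p = 0.018). Itga4, its α4 partner, had 32738, 33386, 33616 and 30156 in WT and 26669.7, 25776 and 25442 in CD25hi libraries (log2 difference 0.32, standard error 0.06, adjusted p = 0.031), and CD25lo libraries were at 33128 and 34384. Itga7, a laminin-binding chain on chromosome 10 from 128933818 to 128958282, had 390.5, 477, 339.5 and 329.9 in WT and 202, 72.3 and 162 in CD25hi libraries (log2 difference 1.50, standard error 0.28, adjusted p = 0.027), and the highest levels, 662 and 443, in CD25lo libraries. For Itga7, WT replicate 4 was at the level of WT replicate 3.

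A few genes of the conventional helper and follicular T cell lists followed the same order. Of 13 conventional CD4 T cell genes, 2 were higher in bulk WT, and of 13 follicular genes 2 were higher, with 0 lower in either list. Cd40lg, the ligand by which helper T cells activate B cells, had 2266, 1979, 1864 and 1433 normalized counts in WT, 1240.3, 1065 and 1012 in CD25hi and 2090.4 and 1969 in CD25lo libraries (WT minus CD25hi 0.76, standard error 0.13, adjusted p = 0.022). Il4, a helper cytokine, was listed at 0, 0 and 1 normalized counts in CD25hi libraries, and had 54.1, 41.5, 42.7 and 22.6 in WT and 37.3 and 24.2 in CD25lo libraries. It entered the test only through bulk WT, so its call is no support for the list, and no size is given at 1 normalized count or fewer. Slamf6, a receptor of T cell and B cell contacts, differed by a small step, 0.25 (standard error 0.06, adjusted p = 0.049), with 11111, 10795, 10622 and 10796 in WT and 9095, 8781 and 9426 in CD25hi libraries. Cebpa, a myeloid transcription factor placed on the follicular list, had 438, 786, 476 and 262 in WT and 119, 183 and 175 in CD25hi libraries (log2 difference 1.54, standard error 0.33, adjusted p = 0.043). Its CD25lo libraries were divided, at 185.5 and 387.6. Ifng, on the conventional list, did not pass (log2 difference 1.80, adjusted p = 0.065) and had another order. It had 368, 386, 327 and 178 in WT, 81.6, 43.8 and 178 in CD25hi and 77.3 and 65.6 in CD25lo libraries.

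Another 3 genes of this order were chosen after their values were seen. Plekhg3, a pleckstrin homology domain protein, had, with Rasd1, the smallest adjusted p of all genes tested, with 409, 652, 375 and 454 in WT and 56.3, 104 and 119.8 in CD25hi libraries and 324 and 354 in CD25lo libraries. WT replicate 4 stood between the other WT libraries, and the log2 difference was 2.36 (standard error 0.29, adjusted p = 0.0019). Myo1f, a myosin of leukocyte adhesion, had 2969.7, 2886, 2186 and 2147 in WT, 1243, 1203 and 1464 in CD25hi and 2677 and 2055 in CD25lo libraries (log2 difference 0.96, standard error 0.15, adjusted p = 0.016). Chd7, a chromatin remodeller, had 5488, 5852, 5282 and 4607 in WT, 3277, 3506 and 3128 in CD25hi and 6057 and 5224 in CD25lo libraries (log2 difference 0.68, standard error 0.11, adjusted p = 0.016).

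Of 29 effector Treg genes, 7 were higher in bulk WT (1.01% of all genes were) and 0 lower, and the median log2 difference was 0.59, with 0.84, 0.90 and 0.61 in WT replicates 1, 2 and 3 and 0.30 in WT replicate 4. The CD25lo group mean lay at a median of 0.23. Without WT replicate 4, 18 of the 29 were higher (4.22% of all genes were). Markers of myeloid cells, whose values follow below, were high in the same 3 libraries. Prdm1, encoding Blimp-1, a regulator of effector Tregs, had 1251, 1308, 1068 and 909.5 normalized counts in WT and 847, 441 and 593 in CD25hi libraries (log2 difference 0.89, standard error 0.20, adjusted p = 0.045). Gzmb, encoding the cytotoxic protease granzyme B, had 812, 721, 515 and 466 in WT and 254, 71.3 and 283 in CD25hi libraries (log2 difference 1.82, standard error 0.43, adjusted p = 0.0497), and Areg, a growth factor of tissue repair, had 929, 1140.1, 656 and 57.6 in WT and 53.5, 0 and 68.6 in CD25hi libraries (adjusted p = 0.049, with no size given since a CD25hi library is at 0). Gzmb and Areg were named after their values were seen. For Gzmb all WT libraries lay above all CD25hi libraries, whereas for Areg WT replicate 4, at 57.6, lay within the CD25hi range.

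Of 17 chemokine receptors, 4 were higher (Cxcr4, Gpr183, Ccr4 and Ccr2) and 0 lower, with a median log2 difference of 0.50. Ccr4, a receptor of skin-homing T cells, had 2566, 2293, 2491 and 1888 in WT and 1224, 1320.1 and 1730.0 in CD25hi libraries (log2 difference 0.70, standard error 0.13, adjusted p = 0.027), and CD25lo libraries were at 2062 and 1945. Gpr183, which guides cells by oxysterols, had 2636, 2888, 3021 and 1901 in WT and 1258, 1485 and 1221 in CD25hi libraries (log2 difference 0.97, standard error 0.18, adjusted p = 0.027). WT replicate 4 exceeded each CD25hi library for both, by less than the other WT libraries did. Cxcr4 belonged with the genes that follow.

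**Figure D2:**
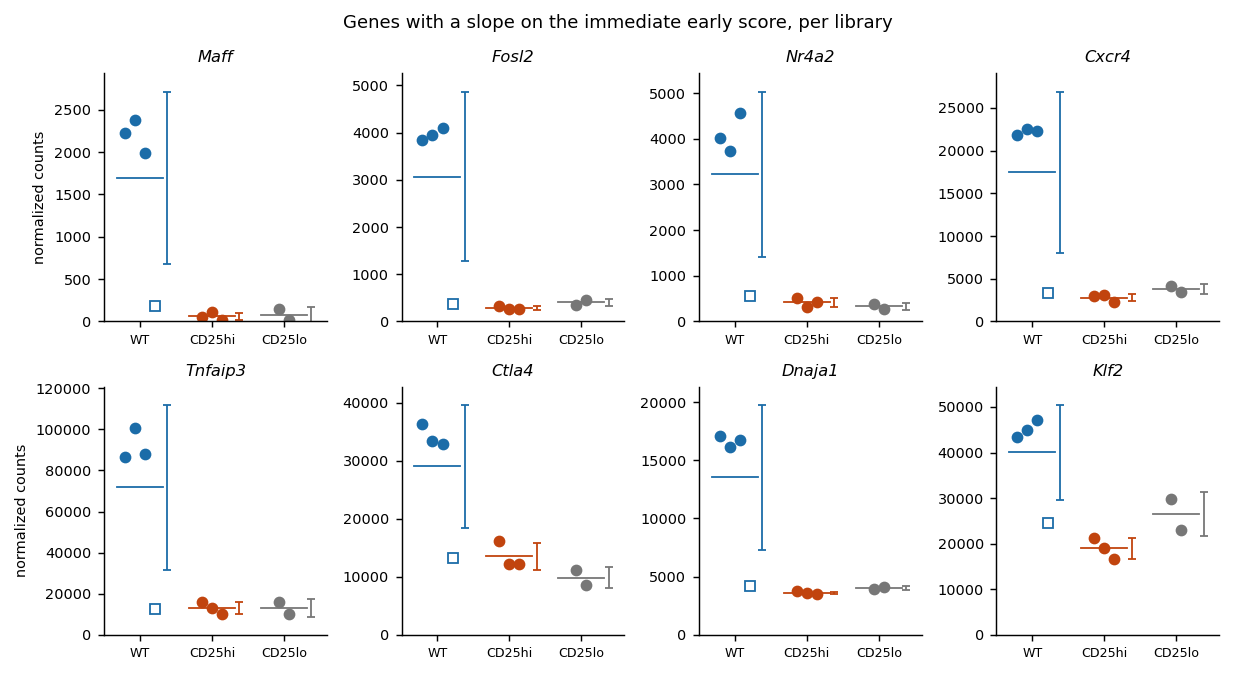
Normalized counts per library (y axis, from 0) of 8 genes that followed the immediate early level, in bulk WT (blue), CD25hi (orange) and CD25lo (grey) Tregs, with a line at the group mean, an error bar for the SD, and WT replicate 4 as an open square. WT replicates 1 to 3 stand together above all others, and WT replicate 4 lies at or near the level of the gated libraries, for instance at 3292 for Cxcr4 against 2326 to 3074 in CD25hi libraries.

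Among called genes with a mean of at least 500 normalized counts, immediate early and activation genes were among the largest rises in bulk WT Tregs, and WT replicate 4 did not share most of their size. Of the 20 immediate early genes, 13 were higher in bulk WT (1.01% of all genes were) and 0 lower, and 19 without WT replicate 4. The median log2 difference over the 20 was 1.34, made of 1.84, 1.58 and 1.74 in WT replicates 1, 2 and 3 and 0.20 in WT replicate 4. Maff, a small MAF factor on chromosome 15 from 79347541 to 79359072, had 2225, 2379.5, 1984 and 183 normalized counts in WT and 52.5, 106 and 18.4 in CD25hi libraries (log2 difference 4.62, standard error 0.86, adjusted p = 0.027), the largest change among genes with a mean of at least 500. WT replicate 4 lay above the CD25hi libraries and far below the other WT libraries. Fosb, an AP-1 subunit, had 62771, 52534, 52886 and 21651 in WT and 16544, 14614 and 10938 in CD25hi libraries (log2 difference 1.67, standard error 0.32, adjusted p = 0.027), and Klf4, a zinc finger factor that restrains proliferation, had 6674, 7594, 4882 and 1073 in WT and 921, 568 and 504 in CD25hi libraries (log2 difference 2.65, standard error 0.53, adjusted p = 0.031). Jund, another AP-1 subunit, rose by 0.84 on the log2 scale (adjusted p = 0.028).

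The promoters of these genes were read for sequence elements, as they moved together. The cyclic AMP response element TGACGTCA, which is its own reverse complement and is bound by CREB and ATF factors, was present in the window of 4 of the 18 immediate early genes that had one (Btg2, Dusp1, Maff and Ppp1r15a). It was present in 11 of 107 genes higher in bulk WT (10.3%), 2 of 29 lower in bulk WT (6.9%), 364 of 10207 genes tested (3.57%) and 1.79% of all 32851 windows. Windows run from 250 bases before to 50 after a RefSeq start (GRCm38.p6), and a gene with several starts was counted when any of its windows held the element, as Maff in 1 of 3. The windows of Maff, Dusp1 and Ppp1r15a, and of Plk2, a stress-induced kinase, are shown because these 4 genes were higher in bulk WT and hold the element, in capitals.
Maff promoter, chr15:79347270-79347569, plus strand: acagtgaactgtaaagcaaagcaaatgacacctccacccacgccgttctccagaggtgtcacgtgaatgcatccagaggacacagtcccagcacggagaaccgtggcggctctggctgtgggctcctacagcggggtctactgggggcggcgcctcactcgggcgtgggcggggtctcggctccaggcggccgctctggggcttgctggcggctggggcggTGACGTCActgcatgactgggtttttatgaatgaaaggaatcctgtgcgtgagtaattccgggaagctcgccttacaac
Dusp1 promoter, chr17:26508423-26508722, minus strand: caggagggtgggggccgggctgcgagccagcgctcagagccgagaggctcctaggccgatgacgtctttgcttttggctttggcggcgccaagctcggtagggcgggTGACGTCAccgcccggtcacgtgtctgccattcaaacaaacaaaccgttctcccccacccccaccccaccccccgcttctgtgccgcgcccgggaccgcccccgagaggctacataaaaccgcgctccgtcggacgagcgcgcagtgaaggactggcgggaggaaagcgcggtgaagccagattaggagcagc
Ppp1r15a promoter, chr7:45526219-45526518, minus strand: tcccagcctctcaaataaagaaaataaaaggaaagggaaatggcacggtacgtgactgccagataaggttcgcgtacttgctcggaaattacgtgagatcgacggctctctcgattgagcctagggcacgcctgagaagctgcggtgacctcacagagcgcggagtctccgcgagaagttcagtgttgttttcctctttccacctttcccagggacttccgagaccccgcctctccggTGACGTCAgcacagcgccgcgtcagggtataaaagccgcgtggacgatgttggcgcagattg
Plk2 promoter, chr13:110394794-110395093, plus strand: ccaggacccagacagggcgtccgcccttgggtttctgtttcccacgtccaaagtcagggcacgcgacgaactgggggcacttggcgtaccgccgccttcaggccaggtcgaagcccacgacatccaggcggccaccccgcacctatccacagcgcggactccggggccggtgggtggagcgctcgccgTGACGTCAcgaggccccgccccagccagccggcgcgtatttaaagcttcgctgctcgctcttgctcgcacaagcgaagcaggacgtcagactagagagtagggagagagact
Dusp1, which dephosphorylates MAP kinases, had 85263, 87769.6, 74925 and 23804 normalized counts in WT and 23509.9, 21179 and 17521 in CD25hi libraries. Ppp1r15a, a stress-induced phosphatase subunit, had 44271, 41304, 39339 and 12669.7 in WT and 13087, 10509.7 and 9983 in CD25hi libraries. Plk2 had 2856, 3231, 2533 and 468 in WT and 646, 155 and 244 in CD25hi libraries. In all 3 genes WT replicates 1 to 3 were high, and WT replicate 4 lay within the CD25hi range or, for Dusp1, just above it. The log2 differences were 1.55, 1.47 and 2.64 (adjusted p = 0.045, 0.045 and 0.045). A match is a description and not a bound site.

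Beyond the immediate early list, Fosl2, an AP-1 subunit, had 3852, 3955, 4098 and 377 normalized counts in WT and 337, 269.9 and 267 in CD25hi libraries (log2 difference 2.92, standard error 0.62, adjusted p = 0.040). Cxcr4, the receptor for CXCL12 that holds lymphocytes in marrow and lymphoid tissue, lies on chromosome 1 from 128588199 to 128592293 and had 21792, 22484, 22288 and 3292 in WT and 2968, 3074 and 2326 in CD25hi libraries (log2 difference 2.31, standard error 0.49, adjusted p = 0.040). Nr4a2, an orphan nuclear receptor induced by the T cell receptor, had 4019, 3738, 4574 and 553 in WT and 519, 313 and 432 in CD25hi libraries (log2 difference 2.59, standard error 0.50, adjusted p = 0.029). In each, WT replicate 4 lay just above the highest CD25hi library, and replicates 1 to 3 lay many times higher. Pmaip1, the proapoptotic NOXA, and Trib1, a pseudokinase, rose by 2.23 and 1.78 on the log2 scale (adjusted p = 0.040 and 0.027).

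Genes of the T cell receptor and NF-κB responses were read next. Of 17 T cell receptor induced genes, 5 were higher (Cd69, Dusp5, Nfkbid, Nr4a2 and Spry1) and 0 lower. Their median log2 difference was 0.50 over the list, and WT replicate 4 alone lay at 0.00. Cd69, an early activation antigen named here after its values were seen, had 17272, 16573, 17316 and 5090.3 in WT and 6072, 3981 and 3883 in CD25hi libraries (log2 difference 1.47, standard error 0.33, adjusted p = 0.045), and Dusp5, a nuclear ERK phosphatase, had 8303, 8821, 9530.3 and 2196 in WT and 2179, 1571 and 2094 in CD25hi libraries (log2 difference 1.70, standard error 0.39, adjusted p = 0.047). Of 13 NF-κB feedback genes, 2 were higher, Cd40lg and Tnfaip3. Tnfaip3, encoding the ubiquitin-editing enzyme A20, had 86326, 100586, 87846 and 12457 in WT and 15832, 12832 and 9971 in CD25hi libraries (log2 difference 2.13, standard error 0.49, adjusted p = 0.047), with WT replicate 4 inside the CD25hi range. Ctla4, the inhibitory receptor of Tregs, showed the same picture, with 36409.8, 33442, 32969 and 13256 in WT and 16236, 12226 and 12223 in CD25hi libraries. Its difference of 1.01 (standard error 0.25, adjusted p = 0.052) did not pass, and without WT replicate 4 it was 1.35 (adjusted p = 5.14e-06).

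Heat shock genes were read in the same way. Of 15, 3 were higher (Bag3, Dnaja1 and Dnajb4), 0 lower, and 11 were higher without WT replicate 4. Dnaja1, a cochaperone of HSP70, had 17089, 16101, 16711 and 4208 normalized counts in WT and 3719, 3581 and 3472 in CD25hi libraries (log2 difference 1.72, standard error 0.35, adjusted p = 0.032), and Bag3, a nucleotide exchange factor of HSP70, had 2330.3, 2015, 2929 and 513 in WT and 416, 428 and 374 in CD25hi libraries (log2 difference 2.01, standard error 0.43, adjusted p = 0.042). The inducible HSP70 gene Hspa1b had 31917, 30397, 37563 and 5879.6 in WT and 3405, 4723 and 5736 in CD25hi libraries, and did not pass (log2 difference 2.25, standard error 0.68, adjusted p = 0.108). It lies beside a near-identical copy, Hspa1a, and reads of the pair could have been divided between them. The heat shock element, searched on both strands as GAA, TTC and GAA with a pair of bases between units, was in the windows of 4 of 12 heat shock genes (Chordc1, Hsph1, and Hspd1 and Hspe1, which share a divergent promoter), none of 18 immediate early genes, and 0.603% of all windows. It was in 0 of 107 genes higher in bulk WT, and the called Bag3, Dnaja1 and Dnajb4 were not among the genes with a match. The STAT motif TTCNNNGAA, which reads the same on both strands, was in 5 of 13 IL-2 and STAT5 target genes (Bcl6, Cish, Il7r, Lta and Socs3) and in 8.3% of all windows. None of these 5 was called, and the called Il2rb, Bcl2 and Ecm1 were not among them. The motif was in 2 of 29 genes lower in bulk WT (6.9%), 8.37% of genes tested and 3 of 18 immediate early genes.

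Klf2, which is listed with resting Treg genes and drives exit from lymphoid tissue, was the single member of 18 called, and it was also called for its slope on the score, 0.42 (standard error 0.05, adjusted p = 1.3e-05), a measure explained below. It had 43355, 44929, 47217 and 24546 normalized counts in WT and 21230.1, 19080.0 and 16530.5 in CD25hi libraries (log2 difference 1.04, standard error 0.19, adjusted p = 0.027), so that WT replicate 4 exceeded the CD25hi libraries and the other WT libraries lay far higher. Ccr7, the lymph node homing receptor, had 12226, 10598, 15544 and 7086 in WT and 7459.5, 7795 and 7861 in CD25hi libraries (log2 difference 0.50, standard error 0.17, adjusted p = 0.155), and Igfbp4 had 10372, 8928, 10522 and 12817 in WT and 15024, 15443 and 12592 in CD25hi libraries (log2 difference -0.44, standard error 0.18, adjusted p = 0.237). The median over the list was 0.01.

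**Figure D3:**
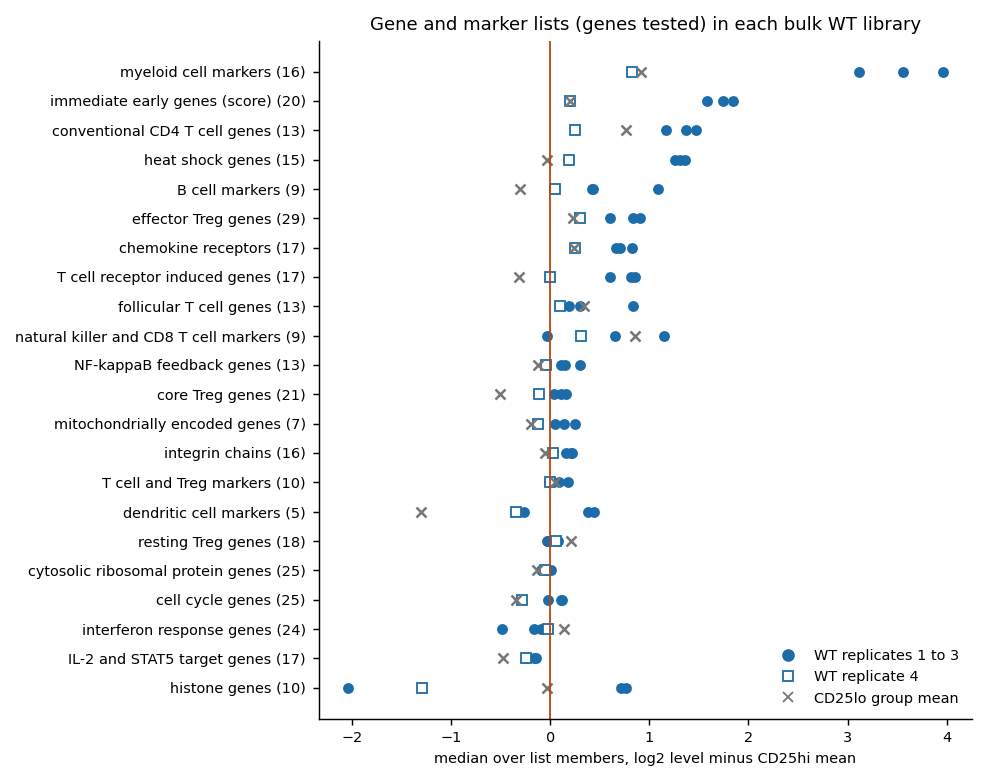
Median over the members of each gene or marker list with at least 5 genes tested (number tested in parentheses) of the log2 level minus the CD25hi mean (x axis), for WT replicates 1 to 3 (filled circles), WT replicate 4 (open squares) and the CD25lo group mean (crosses). For myeloid markers, immediate early genes and heat shock genes WT replicates 1 to 3 stand far to the right of WT replicate 4, whereas for IL-2 and STAT5 target genes all 4 WT libraries lie left of 0, at -0.16, -0.25, -0.14 and -0.24.

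The immediate early level was next used as a measure within groups. For each gene the slope of its log2 level on the score was fitted beside the 4 group means over all 14 libraries, so that the slope uses differences among libraries of the same group and not the difference between bulk WT and CD25hi Tregs. Of 14860 genes outside the score, 331 (2.23%) had a positive and 85 (0.572%) a negative slope by limma. The widest contrast is within WT, and without WT replicate 4 the counts were 22 and 0 (450 and 286 at an unadjusted p under 0.05 by limma). Sik1, a salt-inducible kinase, had 21119.9, 21265, 23822 and 2195 normalized counts in WT and 2475, 2459 and 1809 in CD25hi libraries and a slope of 1.32 (standard error 0.11, adjusted p = 5.6e-07) in log2 units per log2 unit of the score. The slopes of Fosl2, 1.39 (standard error 0.15, adjusted p = 7.8e-06), and Cxcr4, 1.16 (standard error 0.08, adjusted p = 7.9e-08), were of the same size. Gem, a GTP-binding protein, and Plk2 had slopes of 1.38 and 1.26 (adjusted p = 6.6e-05 and 1.3e-04), and Hspa1a and Hspa1b of 1.39 and 1.27 (adjusted p = 0.022 and 0.0097). Ctla4 rose by 0.54 per unit of the score (adjusted p = 3.2e-05).

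The negative slopes were smaller. Cdk16, a cyclin-dependent kinase, had 1554, 1713, 1671 and 3122 normalized counts in WT and 2612, 2309 and 2729 in CD25hi libraries, and a slope of -0.40 (standard error 0.05, adjusted p = 1.0e-04). WT replicate 4 was the highest of its group and lay above the CD25hi libraries. The uncharacterized 2010016I18Rik had 2835, 2923, 2919 and 4894 in WT and 4189, 4518 and 4657 in CD25hi libraries (slope -0.41, standard error 0.07, adjusted p = 0.0015), and AI480526 had 389, 289, 429 and 937 in WT and 858, 548 and 643 in CD25hi libraries (slope -0.69, standard error 0.14, adjusted p = 0.0072). The zinc finger genes Zfp952 and Zfp866 and the genes Fam8a1, Kbtbd4 and Gm12250 had slopes from -0.50 to -0.36. None of these 8 genes was called between WT and CD25hi Tregs by limma with all libraries (adjusted p of 0.31 to 0.86). Without WT replicate 4, Cdk16 (-0.63, adjusted p = 0.00385), Gm12250 (-0.50, adjusted p = 0.0312) and Fam8a1 (-0.80, adjusted p = 0.0398) were lower in bulk WT.

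The genes described with the gate differed in their slopes. Ikzf4 had a slope of -0.15 (standard error 0.04, adjusted p = 0.067) with an unadjusted p of 0.0023, and Bcl2 of -0.12 (standard error 0.05, adjusted p = 0.293) with an unadjusted p of 0.040. Cd40lg and Ccr4 had slopes of 0.19 and 0.16 (adjusted p = 0.118 and 0.216). Il2rb had a slope of 0.01 (standard error 0.03, adjusted p = 0.904), Car12 of 0.02 (standard error 0.11, adjusted p = 0.948), Lad1 of -0.07 (standard error 0.08, adjusted p = 0.734) and Plekhg3 of 0.06 (standard error 0.17, adjusted p = 0.904). Itga7, Itgb1 and Itga4 had slopes of 0.13, 0.15 and 0.07 (adjusted p = 0.757, 0.19 and 0.352). A slope that misses the threshold does not show that a gene is independent of the score. Chd7 and Gpr183 were called in both respects, with slopes of 0.18 and 0.32 (adjusted p = 0.037 and 0.015).

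The cKO libraries, which enter the difference between WT and CD25hi Tregs only through the common estimate of the spread, gave a look at the same genes in other samples. Their score ran from 12.81 to 13.92. Within these 5 libraries the slope on the score was above 0 for 135 of the 151 genes higher in bulk WT, with a median of 0.42, and for 9 of the 37 lower in bulk WT, with a median of -0.07. Over all genes tested it was above 0 for 50.9%, with a median of 0.0061. These are counts over genes of 5 shared libraries and carry no test. The 151 genes include 13 members of the score itself, whose slopes on it are positive partly by construction.

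When the score entered the comparison as a term, 0 genes were called between WT and CD25hi Tregs by limma, with 618 higher and 816 lower at an unadjusted p under 0.05 and a smallest adjusted p of 0.059, for Plekhg3. No other tool was run with this term. The median standard error rose to 0.32 from 0.24, WT replicate 4 was the only bulk WT library in the CD25hi range of the score, and a count of 0 does not show that nothing differs. Under this term Cxcr4 had a log2 difference of 0.33 (standard error 0.20, adjusted p = 0.626) in place of 2.31, and Tnfaip3 of 0.20 (standard error 0.25, adjusted p = 0.817) in place of 2.13. Il2rb was at -0.30 in place of -0.28, Car12 at -0.96 in place of -0.93, and Plekhg3 at 2.27 in place of 2.36. Other genes described with the gate moved by over 1.5 times. Ikzf4 was at -0.16 in place of -0.41, Bcl2 at -0.23 in place of -0.43, Foxp3 at -0.13 in place of -0.23, and Ctsw at -0.45 in place of -0.70. Itgb1 was at 0.46 in place of 0.71, Itga4 at 0.21 in place of 0.32, Cd40lg at 0.44 in place of 0.76, Ccr4 at 0.42 in place of 0.70, and Chd7 at 0.37 in place of 0.68.

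**Figure D4:**
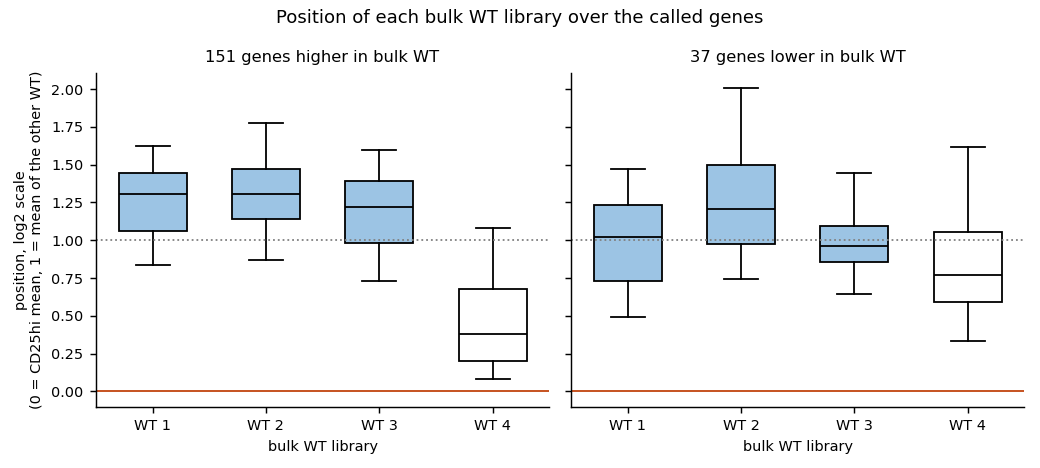
Position of each bulk WT library on the log2 scale between the CD25hi mean (0, orange line) and the mean of the other 3 WT libraries (1, dotted line), over the 151 genes higher and the 37 genes lower in bulk WT. Boxes show quartiles with the median and whiskers the 5th and 95th percentiles over genes. WT replicate 4 (white) has a median of 0.38 over the higher genes and 0.77 over the lower genes.

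Each WT library was then placed between the CD25hi mean and the mean of the other 3 WT libraries. Over the 151 higher genes, WT replicates 1, 2 and 3 had median positions of 1.30, 1.31 and 1.22, and WT replicate 4 of 0.38, with 60 genes past the middle. Over the 37 lower genes the medians were 1.02, 1.20, 0.96 and 0.77, and 31 genes of WT replicate 4 were past the middle. These libraries took part in calling the genes, so the positions are a description. WT replicate 4 lay at 1.09 for Car12, 0.99 for Plekhg3, 0.88 for Il2rb and 0.83 for Itga7. For Cxcr4, Fosl2, Sik1 and Tnfaip3 it lay at 0.08, 0.10, -0.01 and -0.01.

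The range of the gated libraries gave a further description. All 4 WT libraries lay above all 3 CD25hi libraries in 757 genes (5.09%) and below them in 674 (4.53%), and among the called genes this held for 124 of 151 and 37 of 37. All 4 lay above all 5 gated libraries in 246 genes (1.65%), 50 of them called. The WT mean lay between the CD25hi and CD25lo means for 18 of the 151 higher and 13 of the 37 lower genes. Itga7 and Itga4 were among the first group and Il2rb, Ikzf4 and Lad1 among the second, whereas Cxcr4, Maff and Exosc5 lay outside both gates.

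Other programmes gave few calls. Of 25 cell cycle genes 0 were called by limma, edgeR, DESeq2 or limma-voom, and 0 had an unadjusted p under 0.05, and the same held for 7 mitochondrially encoded genes. Of 25 cytosolic ribosomal protein genes 0 were called by limma, edgeR or limma-voom, with 2 higher and 3 lower at an unadjusted p under 0.05 and 1 of each by DESeq2. Of 10 histone genes 0 were called by these tools (1 higher at an unadjusted p under 0.05). Of 24 interferon response genes 0 were called by limma, edgeR or limma-voom, 5 were lower by DESeq2, and 1 was higher and 8 lower at an unadjusted p under 0.05. Over all genes, 6.38% were lower at that unadjusted p and 1.01% by DESeq2. Without WT replicate 4, 7 of these 24 were lower (1.55% of all genes were). Ifi47, an interferon-induced GTPase, had 3753, 3415, 4152 and 5322 normalized counts in WT and 5452, 5948 and 5454 in CD25hi libraries (log2 difference -0.45, standard error 0.11, adjusted p = 0.0501), with all WT libraries below all CD25hi libraries.

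Markers of other cells were read in the same libraries. Of 16 myeloid markers, 2 were higher in bulk WT (Cd68 and C1qb) and 0 lower, and 9 were higher without WT replicate 4. Their median log2 difference was 2.79, with 3.96, 3.11 and 3.56 in WT replicates 1, 2 and 3 and 0.82 in WT replicate 4. The summed level of the 16 was 24331, 16799, 20249 and 10831 normalized counts in WT replicates 1 to 4, against a range of 10884 to 11467 for CD25hi Tregs, of which Ctss, a lysosomal protease, made 8367 to 9749 in WT and 8702 to 9562 in CD25hi libraries. Cd14 and Spi1 were at 0 in all CD25hi libraries and in WT replicate 4. Tyrobp had 1.9, 0 and 16.4 normalized counts in CD25hi libraries. Cd14, Spi1 and Tyrobp are part of the median and of the 9 called without WT replicate 4. They passed the filter on low values only through bulk WT, so their calls are no support. C1qb, a complement chain of macrophages, had 1446, 614, 934 and 178 in WT and 64.7, 24.4 and 88.9 in CD25hi libraries (log2 difference 3.55, standard error 0.84, adjusted p = 0.049), and Cd68, a lysosomal protein of macrophages, 762, 508, 541 and 179 in WT and 116, 122 and 94.7 in CD25hi libraries (log2 difference 1.98, standard error 0.45, adjusted p = 0.048). Mrc1 and Hmox1, a scavenger receptor and a haem-degrading enzyme of macrophages, were among the 8 genes of largest slope at a mean of at least 500 (adjusted p = 0.032 and 0.027), and Mrc1 had 2225, 432, 1294 and 139.8 in WT and 116, 127 and 246 in CD25hi libraries. The myeloid markers were thus highest in the WT libraries in which the immediate early, heat shock and effector lists were highest, and their part in those results was not tested.

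The other marker lists gave 0 calls by limma, edgeR with TMM factors and limma-voom, apart from the T cell and Treg markers, of which Ctla4 was called by edgeR. At an unadjusted p under 0.05, 2 of 9 B cell markers, 1 of 2 neutrophil markers and 2 of 9 natural killer and CD8 T cell markers were higher (9.03% of all genes were), with 1 of each called by DESeq2, and 1 of 4 plasma cell markers was called by DESeq2. None of 5 dendritic cell, 2 erythroid and platelet or 3 stromal and endothelial markers was called by any of these tools or at that unadjusted p. The summed level of the B cell markers was 15331 to 20878 in WT and 13854 to 15207 in CD25hi libraries, most of it Ighm. Pax5 was at 86.4, 80.8, 31.5 and 34.9 in WT and 7.5, 0 and 20.3 in CD25hi libraries (adjusted p = 0.080, with no size given since a CD25hi library is at 0). Without WT replicate 4, 1 B cell marker, Pax5 (adjusted p = 0.0425), and 1 natural killer marker, Klrd1 (adjusted p = 0.0273), were called. Pax5 passed the filter on low values only with bulk WT libraries, so its call is no support. Of 10 T cell and Treg markers, 3 were higher and 1 lower at an unadjusted p under 0.05.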

How the data were processed

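RNA sequencing (single-end) measured 14 libraries of sorted Tregs. Per the labels and the methods of the study, the authors aligned reads with STAR 2.7.2b to GRCm38 and scaled the count of each gene by the size factor of its library (DESeq2 1.24.0). The deposited signal is this normalized count, rounded to 1 decimal. The counter, its strand setting and the dates of sorting are not given in the sources used here. Of 55536 genes listed, 48363 had values. The authors also deposited variance-stabilized log2 values, gene GC percent, and the log2 fold changes, linear fold changes (ratios) and p-values of their own comparisons, none of which was used.

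Whole reads were recovered from 100% of the normalized counts, within the rounding, and reads in genes per library ran from 30055573 to 35226685. Genes with at least 10 normalized counts in 2 of the 4 WT and 3 CD25hi libraries were tested with limma 3.58.1 (R 4.3.3) on log2(normalized count + 1) over all 14 libraries in 4 groups, and fold changes are on that scale, which understates low genes. The slope on the immediate early score was fitted beside the group means. Calls had a Benjamini-Hochberg adjusted p under 0.05 over all genes tested. edgeR 4.0.16, DESeq2 1.42.0 and limma-voom on the recovered reads were alternatives, with other filters, pseudocounts, left-out libraries and a replicate block. With reads of the depth given, a count of 0 allows up to 3 reads, and such limits cover counting error only.

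Genes were named by rule: receptor chains and label checks, the 10 largest called changes each way with a mean of at least 500 and no overlap, the 8 largest slopes each way at the same mean, and of each of 17 gene lists and 9 marker lists the 3 smallest adjusted p. Called list members beyond these were named after their values were seen. The members and lists were chosen with earlier results of these data known. The fits by limma and by edgeR with TMM factors were tested on simulated counts, for the difference between WT and CD25hi Tregs and for the slope. Coordinates are those of the deposited table. Promoter windows came from RefSeq (GRCm38.p6).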

Additional observations from a re-analysis of the deposited data

Results flagged for a closer look

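In a group of 4 libraries, a library was set apart when its gap to the nearest of the others exceeded Dixon's 95% critical value as a share of the range. Of 173 genes and list means examined in the 4 WT libraries, 29 met this. Chance gives about 1 in 20 for genes picked without regard to their values. Many of these genes were named for a difference or slope in which WT replicate 4 took part. The share is therefore not to be set against chance. WT replicate 4 was the library set apart in 26 of these. The groups are not independent, since many are genes of 1 list.

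Among activation and stress genes WT replicate 4 was low for Ctla4 (13255.5 normalized counts), Fosl2 (377.2), Cxcr4 (3291.8), Pmaip1 (602.2), Dnaja1 (4207.5), Dusp5 (2196.2), Sik1 (2195.2), Tnfaip3 (12456.9), Klf2 (24546.0) and Cd69 (5090.3). It was also low for the immediate early genes Jund (22494.7), Klf6 (18279.0), Egr1 (11778.7), Ppp1r15a (12669.7), Zfp36 (22240.8), Junb (48541.1), Ier2 (6313.3) and Ier5 (6490.0). The mean log2 levels of the immediate early and heat shock lists in that library, 11.656 and 11.3, were set apart in the same way. Srd5a3 (646.4) was low there too, and 2010016I18Rik (4894.0), Cdk16 (3122.2) and Zfp866 (1687.5) were high.

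The myeloid markers Cst3 (765.6) and Fcgr3 (25.7) were low in WT replicate 4. Nos3 (42.6) and the mean of the interferon response genes (9.509) were set apart in WT replicate 2, high and low in that order, and Hbb-bs, a globin gene (139.5), was high in WT replicate 1.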

How the results depend on the processing

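Against 151 genes higher and 37 lower in bulk WT Tregs, the counts were 503 and 151 by DESeq2, 8 and 12 by limma-voom, 69 and 18 at a pseudocount of 0.5, 326 and 67 with limma array weights, 4 and 1 without a filter, 3 and 1 with library sex as a covariate, and 0 and 1 on the 7 libraries alone (limma, 945 and 585 at an unadjusted p under 0.05). With at least 100 normalized counts in 3 libraries, 60 were lower. Leaving out 1 library at a time gave 2 to 618 higher and 0 to 227 lower. The numbers rose without WT replicate 4 and fell without any other library. With the immediate early score as a term 0 and 0 were called, also with the replicate block (427 and 514 at an unadjusted p under 0.05 by limma). The cause of these changes was not tested, except that leaving libraries out leaves fewer samples.

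Against 331 positive and 85 negative slopes, there were 553 and 188 by DESeq2, 170 and 4 on the 7 libraries alone, and 624 and 217 on the 9 bulk libraries. limma-voom gave 218 positive slopes, a score of heat shock genes 201 positive, and array weights 160 negative. Leaving out 1 library gave 22 to 411 positive and 0 to 125 negative (at an unadjusted p under 0.05, 286 negative without WT replicate 4), with 194 and 42 without WT replicate 1. Without every WT library, an alternative chosen after seeing the data, 5 and 0 remained by limma (464 and 347 at an unadjusted p under 0.05).

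Whether the replicate numbers mark pairs was not settled. The deviations of same-numbered WT and CD25hi libraries correlated weakly, at 0.0287, 0.0652 and 0.0945 over 5806 genes. Differently numbered libraries correlated at -0.12 to 0.0413, and for each of WT replicates 1, 2 and 3 the same-numbered CD25hi library was the closest. A replicate block gave 24 genes higher and 1 lower, and 144 positive and 30 negative slopes. With the score and the replicate block together, Egr1, Zfp36 and Ier2 turned to -0.056, -0.020 and -0.055 (log2). Over the named genes and alternatives, 2078 differences between WT and CD25hi kept direction and call, 851 lost the call, 81 gained it and 3 reversed.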

Other observations

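Among genes with at least 10 normalized counts in all 4 WT libraries, 7 were listed at 0 in all 5 CD25-gated libraries (Rasd1, Scamp5, Large2, Mir212, Dyrk3, Rtn2 and Nos3), and 0 showed the reverse. They were chosen for this pattern after their values were seen and entered the test only through bulk WT, so no test is given here. For the same reason, the small adjusted p and the stable call of Rasd1 named above are not counted on as support. Rasd1, a Ras-related GTPase induced by glucocorticoids, had 108, 213, 138 and 49.3 normalized counts in WT replicates 1 to 4 and 46.5 to 237.5 in the 5 cKO libraries, which were also sorted without a CD25 gate. Against a floor of 3 reads per CD25hi library it was 43.5-fold higher in WT than in CD25hi Tregs. Scamp5, a secretory carrier protein, had 70.8, 28.4, 24.4 and 107 in WT and 0 to 15.7 in cKO libraries, and was 19.7-fold higher in WT on the same floor. Large2, a glycosyltransferase, had 37.5, 81.9, 18.3 and 43.2 in WT and was 15.5-fold higher. The floor covers counting error only. CD25hi replicate 2 and CD25lo replicate 2 were at 0 for 257 and 100 genes with a median of at least 50 elsewhere. These folds are therefore not firm lower bounds.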
